A study of Mus musculus with 2 samples.

Results

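The miRNAs described here are mmu-miR-23a, mmu-miR-27a, mmu-miR-23b, mmu-miR-27b, mmu-miR-24, mmu-miR-221 and mmu-miR-222 (mmu for mouse, left off below), which were chosen by name as the products of 3 genomic clusters. They make up 7 of the 558 known mouse miRNAs listed for these brains. The small RNA of the whole brain was read in a young library, from mice of 5 months, and an old library, from mice of 24 to 25 months. Both ages were adult male C57BL/6J mice with no treatment named, and each library was a mix of the separately prepared cDNA libraries of 2 animals. The young library held 4523267 reads and the old library 6658732 reads, and the 7 miRNAs took 40063 reads (0.886%) and 40691 reads (0.611%) of them. With 1 library per age there was no replicate error: every interval and p-value below compares the 2 libraries, not the ages, and covers counting error only, since PCR copies are not independent molecules.

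A miRNA is cut from one arm of a hairpin transcript and directs repression of mRNAs that pair with its seed, bases 2 to 8 from the 5′ end. The other arm, the passenger strand (marked with a star), is usually degraded. miR-23, miR-27 and miR-24 are transcribed together from a pair of duplicated clusters and are known from blood vessels, blood cells and lipid metabolism. miR-221 and miR-222 are neighbours that share a seed and are known for repressing the cell cycle inhibitor Cdkn1b and the receptor Kit.

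The sequences below are the deposited tags that carry the listed names, shown because the seeds and 1 base near the 3′ end are what separate the members. Capitals mark the seed, and T stands for U.
miR-23a: aTCACATTgccagggatttcc
miR-23b: aTCACATTgccagggattacc
miR-27a: tTCACAGTggctaagttccgc
miR-27b: tTCACAGTggctaagttctgc
miR-24: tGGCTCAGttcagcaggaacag
miR-221: aGCTACATtgtctgctgggtttc
miR-222: aGCTACATctggctactgggt
The 7 miRNAs thus had 4 seeds, with miR-23a and miR-23b, miR-27a and miR-27b, and miR-221 and miR-222 as the sharing pairs. miR-23a and miR-23b were the same at 20 of 21 bases and differed by T19A, with positions counted from 1 at the 5′ end of the first name. miR-27a and miR-27b were also the same at 20 of 21 bases and differed by C19T. miR-221 and miR-222 shared only their first 8 bases in a row.

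The hairpins were placed by perfect match on NCBIM37, the assembly also called mm9. Mir23a (chr8:86732417-86732491), Mir27a (chr8:86732571-86732657) and Mir24-2 (chr8:86732714-86732820) lay on the plus strand within 404 bp, outside annotated genes. Mir23b (chr13:63401792-63401865), Mir27b (chr13:63402020-63402092) and Mir24-1 (chr13:63402516-63402583) lay on the plus strand within 792 bp, in an intron of a protein-coding gene of the same strand, and the annotation used names no miRNA gene at Mir24-1. Mir221 (chrX:18723420-18723514) and Mir222 (chrX:18724019-18724097) lay on the minus strand within 678 bp, outside annotated genes. The mature miR-24 tag matched both autosomal clusters, so its reads could not be divided between them.

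Reads of a miRNA were all tags that began with its first 18 bases, and the pairs that share this start were told apart by base 19. The levels spanned a wide range. miR-221 was the most abundant member in both libraries, with 4236 reads per 1000000 total reads (RPM) in the young library and 1983 RPM in the old. miR-222 had 2109 and 1724 RPM, and miR-24 had 1689 and 1694 RPM. These 3 lay close together in the old library, while in the young one miR-221 stood well above miR-222 and miR-24. miR-27b followed with 571 and 474 RPM, and miR-23b with 104.6 and 111.1 RPM. miR-27a (76.3 and 51.5 RPM) and miR-23a (71.9 and 73.1 RPM) were the least abundant. The order of the last 2 was therefore not the same in the libraries.

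**Figure D1:**
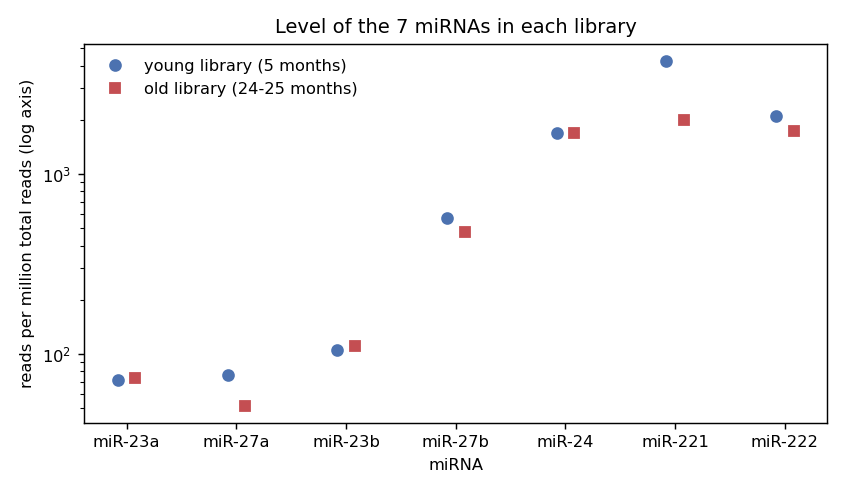
Level of each miRNA, in RPM on a log axis, in the young (circle) and the old (square) library; each point is 1 library and has no error bar. miR-221 stands at 4236 in the young and 1983 in the old library, while the points of miR-24 (1689 and 1694) nearly coincide.

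miR-221 was the only member past 2-fold. Its 19161 young and 13207 old reads gave a log2 ratio (old/young, scaled to total reads) of -1.09 with an exact 95% interval of -1.13 to -1.06, which is 2.14-fold lower. Among all starts of 18 bases with at least 10 reads in a library, 19.4% were at least 2-fold lower, and among the 276 known miRNAs with as many reads 30.4% were, so 1 of 7 was no larger share than the background. Its cluster neighbour miR-222, with 9538 and 11478 reads, differed less, at -0.29 (-0.33 to -0.25).

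Within the autosomal clusters, counted over all tags and scaled to total reads, both miR-27 members were lower in the old library and the others were not. miR-27a, with 345 and 343 reads, had a log2 ratio of -0.57 (-0.79 to -0.35), and miR-27b, with 2581 and 3158 reads, had -0.27 (-0.34 to -0.19). miR-24 had 7640 and 11278 reads and a log2 ratio of 0.004 (-0.04 to 0.05). For miR-23a (325 and 487 reads) it was 0.03 (-0.18 to 0.23), and for miR-23b (473 and 740 reads) 0.09 (-0.08 to 0.26). The intervals of these last 3 held 0.

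In all, 4 of the 7 were lower in the old library, and the same 4 had an adjusted p under 0.05 by the two-sided random sampling model of DEGseq with Benjamini-Hochberg adjustment over 11330 starts. The adjusted p was 1.99e-06 for miR-27a and 2.93e-11 for miR-27b. With an assumed coefficient of variation of 0.1 between libraries, edgeR's exact test left 1 member with an adjusted p under 0.05. This was miR-221, at 3.15e-06, and with 0.2 the test left 0. Of all starts, 44.3% were lower in the old library and 43.6% had an adjusted p under 0.05. Of the known miRNAs, 79.7% were lower, and their median log2 ratio was -0.69. The median of the 7 members was -0.27.

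**Figure D2:**
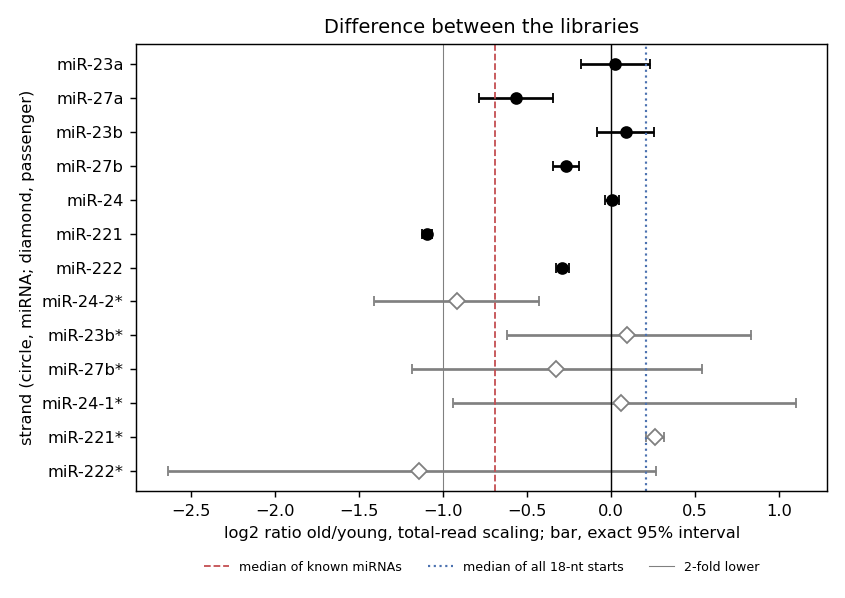
Log2 ratio of old to young reads, scaled to total reads, for the 7 miRNAs (circles) and the passenger strands with at least 10 reads in a library (diamonds), with exact 95% intervals. Only miR-221 among the circles lies left of the median of known miRNAs (-0.69, dashed), and miR-221* lies at 0.26, near the median of all starts (0.21, dotted).

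The direction of most members depended on the scaling. The let-7 family, the most read miRNAs here, held 34.1% of all reads in the young library and 49.0% in the old. Leaving its starts out of the depth moves every log2 ratio up by 0.37. Whether let-7 causes the differences of the members was not tested. Scaled by DESeq2's size factors over known miRNAs, which moves every log2 ratio up by 0.69, miR-221 remained lower at -0.40. Under the same scaling the other 6 had log2 ratios above 0, from 0.13 for miR-27a to 0.78 for miR-23b. The interval of miR-27a held 0 (-0.09 to 0.35). Without let-7 starts in the depth, no member was past 2-fold. There miR-221 was at -0.72, miR-27a at -0.20 (-0.42 to 0.02), miR-222 at 0.079 and miR-27b at 0.10. Of the 4 members that were lower with total reads, miR-221 and no other was lower with a 95% interval below 0 under all 5 scalings.

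**Figure D3:**
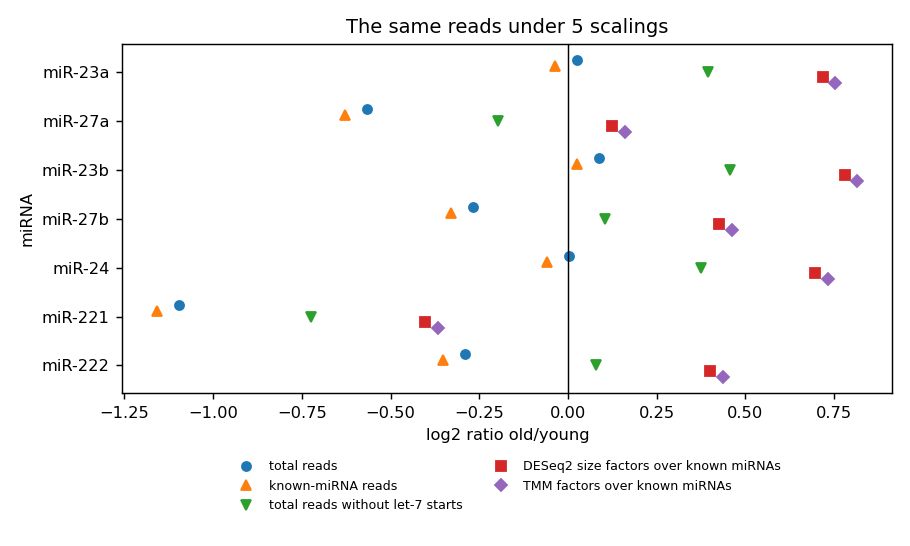
Log2 ratio (old/young) of each miRNA under 5 scalings of the same reads, 1 marker per scaling. miR-221 lies left of 0 under all 5, while miR-27a moves from -0.57 with total reads to 0.13 with DESeq2's size factors.

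The difference between the log2 ratios of 2 members does not depend on the scaling, and 6 of the 9 pairs compared had an exact 95% interval that left out 0. Of all pairs of the 276 known miRNAs, 58.4% did so by a Wald interval, which also gave 6 of 9 here, so the share among the members was near the background. miR-221 and miR-222 differed the most: there were 2.01 reads of miR-221 for each read of miR-222 in the young library and 1.15 in the old, a log2 difference of -0.80 (-0.85 to -0.75). On chromosome 8, the log2 ratio (old/young) of miR-27a was lower than that of miR-23a by 0.59 (0.29 to 0.90, miR-23a minus miR-27a). On chromosome 13, miR-23b exceeded miR-27b in its change by 0.35 (0.17 to 0.54). Against miR-24, miR-27a differed by -0.57 (-0.79 to -0.35) and miR-27b by -0.27 (-0.36 to -0.18). Counted by the listed tags alone, 2 of the 9 pairs left out 0: miR-221 with miR-222, at -0.59, and miR-27b with miR-24, at -0.43.

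miR-23a and miR-23b differed in their change by -0.06 (-0.33 to 0.21), an interval that holds 0 and leaves room for a moderate difference. The pairs miR-23a with miR-24, at 0.02 (-0.19 to 0.23), and miR-23b with miR-24, at 0.08 (-0.09 to 0.26), held 0 as well. They did not hold 0 after a linear correction for GC content, which set miR-24 at 0.41 and these differences at -0.44 (-0.65 to -0.23) and -0.38 (-0.55 to -0.20). miR-27a and miR-27b differed by -0.30 (-0.53 to -0.07), but this interval held 0 when only perfect hairpin matches were counted, at -0.19. Base 19 was read as neither member's base in 0.746% and 0.648% of the miR-23 reads, and in 0.205% and 0.483% of the miR-27 reads, in the young and old library.

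The passenger strand of miR-221 went the other way from its guide. miR-221*, from the 5p arm, had 4626 reads in the young library and 8167 in the old, a log2 ratio of 0.26 (0.21 to 0.31). It took 19.4% (Wilson 95% interval 18.95 to 19.96) of the reads of its hairpin in the young library and 38.2% (37.6 to 38.9) in the old. The arms differed in their change by 1.36 (1.30 to 1.42) on the log2 scale, or 2.56-fold, independently of the scaling. Both arms together were at -0.71 (-0.74 to -0.69). Of 79 hairpins with at least 10 reads on each arm in a library, 30.4% had arms at least 2-fold apart, and Mir221 ranked 11 among them by size. The 10 ranked above it had at most 772 reads on their minor arm over both libraries. Among the 5 hairpins with at least 1000 reads on each arm over both libraries it ranked 1. This cut was not planned, and it leaves out Mir99b, whose arms differed by 1.39.

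The listed miR-221* tag and the most read one are shown because they gave opposite directions. Both match the hairpin in full, so no base is an addition, and capitals mark the seed.
miR-221*, listed: aCCTGGCAtacaatgtagatttctgt
miR-221*, most read: aCCTGGCAtacaatgtagattt
The listed tag has 26 bases, the longest tag in the files, and had 82 young and 62 old reads, a log2 ratio of -0.96 (-1.46 to -0.47). The most read tag has 22 bases and had 3158 and 5683 reads, a log2 ratio of 0.29 (0.23 to 0.35). The listed tag held 1.77% and 0.759% of the reads of its start. Counted by the listed tags alone, the arms differed in their change by 0.14, with an interval that held 0.

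**Figure D4:**
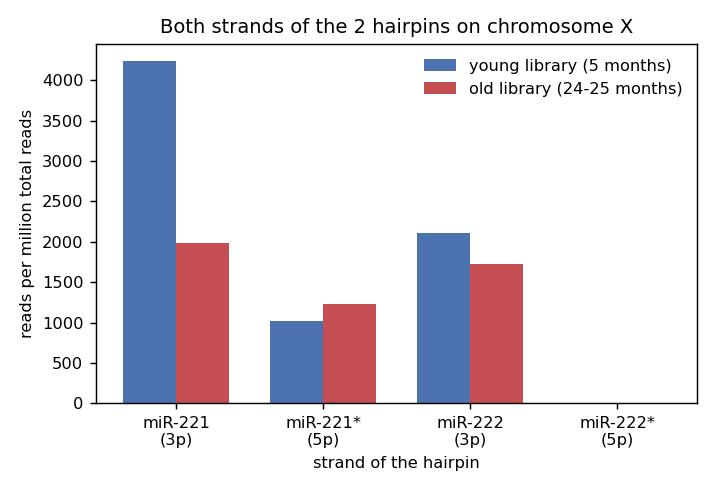
Level in RPM of both strands of Mir221 and Mir222 in the young (blue) and old (red) library; each bar is 1 library. The miR-221 bar is lower in the old library (1983 against 4236) while the miR-221* bar is higher (1227 against 1023), and the miR-222* bars are too low to see.

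The other passenger strands were scarce. miR-222* had 12 and 8 reads, or 0.126% and 0.0697% of its hairpin, so that nearly all Mir222 reads came from the 3p arm. miR-24-2*, the passenger strand of the chromosome 8 cluster, had 82 and 64 reads and a log2 ratio of -0.92 (-1.41 to -0.43). Its interval held 0 with DESeq2's size factors, at -0.22 (-0.72 to 0.27), and with TMM factors, at -0.19 (-0.68 to 0.30). miR-24-1*, of the chromosome 13 cluster, had 15 and 23 reads, at 0.06 (-0.94 to 1.10). These passenger strands differ in sequence, unlike miR-24 itself, and their intervals overlap. miR-27b* had 23 and 27 reads. miR-23b* had 28 and 44 reads at its listed 5′ end, but 70 and 86 more began 1 base upstream, 71.4% and 66.2% of the strand. miR-23a* (3 and 2 reads) and miR-27a* (2 and 1 reads) were too rare for a comparison.

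The 5′ ends of the 7 members were uniform, while their 3′ ends were not. Of the tags that began within 2 bases of the mature 5′ end, those at that end held at least 96.1% of the reads in every member and library. The lowest share was that of miR-23b in the young library. The tags below are shown because their 3′ ends are not those of the listed tags, and capitals here mark bases that do not match the hairpin.
miR-24: tggctcagttcagcaggaacagT
miR-23b: atcacattgccagggattaccacT
miR-27a: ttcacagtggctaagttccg
miR-27b: ttcacagtggctaagttctgcaT
The most read miR-24 tag had 23 bases, of which the last, a T, does not match the hairpin. It had 3261 and 5136 reads, against 1559 and 2289 for the listed tag. The T-extended miR-23b tag was the second most read of that miRNA, with 102 and 145 reads. The most read miR-27a tag lacked the last base of the listed one and held 65.5% and 65.0% of its reads, while the listed tag held 6.09% and 8.45%. The T-extended miR-27b tag, with 95 and 185 reads, is shown for its change, a log2 ratio of 0.40 (0.04 to 0.78). It was chosen for this ratio, and the interval does not allow for that choice. A shorter miR-27b tag with an added T, of 21 bases and with 66 and 77 reads, was at -0.34 (-0.83 to 0.16). All reads with 1 added T made up 7.25% and 9.94% of miR-27b reads. An added T cannot be told apart from an adapter base left on the read.

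In the 4 most read members the share of reads that matched the hairpin in full was lower in the old library. It was 34.99% and 31.57% for miR-24, 78.6% and 74.0% for miR-27b, 78.4% and 75.7% for miR-221, and 78.8% and 75.1% for miR-222, with a Newcombe 95% interval of each difference below 0. The differences of miR-23a, miR-23b and miR-27a had intervals that held 0, as did that of the deeply read miR-221*, at -0.51 points (-1.37 to 0.39). Of 108 known miRNAs with at least 1000 reads over both libraries and a hairpin to match, 38.9% had an interval below 0, beside 4 of the 5 members with as many reads. Reads with 1 added T made up 43.9% and 46.9% of miR-24 reads.

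Tags of these 4 members were also longer in the old library. The mean length went from 20.9 to 21.1 bases for miR-27b, from 22.5 to 22.6 for miR-24, and by 0.10 and 0.056 bases for miR-222 and miR-221. For miR-27b the tag of 20 bases had 242 and 230 reads, a log2 ratio of -0.63 (-0.90 to -0.36), while the tag of 22 bases had 322 and 518 reads, at 0.13 (-0.08 to 0.33). miR-23b, the remaining member with at least 1000 reads over both libraries, differed by -0.02 bases. Of all 124 known miRNAs with as many reads, 64.5% had a longer mean tag in the old library, beside 4 of 5 here.

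**Figure D5:**
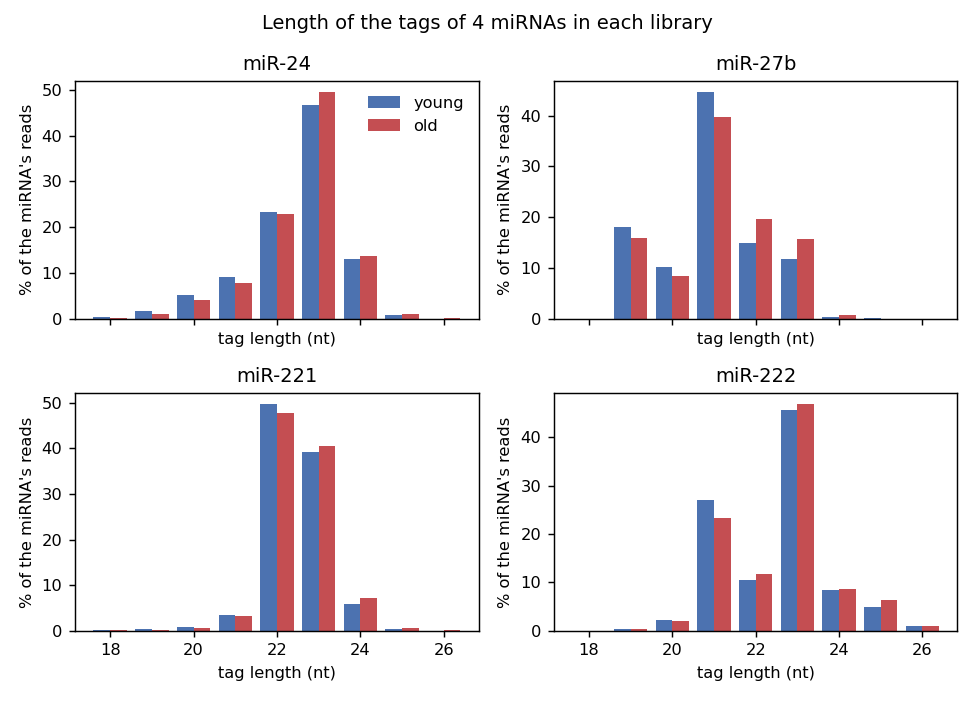
Share of each miRNA's reads, in percent, by tag length in bases, for miR-24, miR-27b, miR-221 and miR-222 in the young (blue) and old (red) library. In miR-27b the 21-base tags fall from 44.6% (young) to 39.7% (old) and the 22-base tags stand at 14.9% and 19.6%.

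Marker miRNAs of the cell types in whole brain also differed between the libraries. The summed log2 ratio was -0.99 for 3 neuronal markers, -0.62 for 3 oligodendrocyte markers and -0.91 for 3 red blood cell markers. These sums were scaled to total reads, where the median of known miRNAs was -0.69. DESeq2's size factors move every log2 ratio up by 0.69. The neuronal markers ranged from -1.21 (miR-124) to -0.56 (miR-9). The oligodendrocyte sum rested on miR-219-3p (-0.59), while miR-219-5p was at -1.04 and miR-338-3p at -0.71. Of 4 blood vessel markers 3 were counted, with a sum at -0.85 that rested on miR-143 (-0.87), while the endothelial miR-126-3p was at 0.23 (-0.24 to 0.71) and miR-126-5p, from the same hairpin and with more reads, at -0.18 (-0.43 to 0.07). No counted marker was at 0 in either library. Their part in the differences of the 7 members was not tested. Fewer cells of a type cannot be told apart from less RNA per cell or from an effect of the scaling.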

How the data were processed

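Small RNAs of whole brain were sequenced from young and old mice, 1 library per age. Before deposit, the authors trimmed 3′ adapters, kept reads that SOAP placed on mm9 and merged equal sequences, so the deposited value is an unnormalized count of reads per tag of 17 to 26 bases. Unaligned reads were not used here. Trimming allowed mismatches, so added 3′ bases can include adapter bases.

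Names were tied to tags through the study's list of known miRNAs, by the tag that held both listed counts (5 members) or equalled a RefSeq mature sequence among such tags (2 members). Reads were then counted over all tags with the same first 18 bases. Tags that fitted 2 members equally were left out, 21 and 20 reads for miR-23 and 41 and 52 reads for miR-27. Depth was total reads (old/young 1.47211), and undetermined bases were present in 4.57% and 1.07% of reads. Such reads stayed in the depth, but were not counted for a miRNA if the undetermined base lay in the first 18. The effect of this on the ratios was not tested. Members, passenger strands and marker miRNAs were named whatever their values. The members and lists were chosen with earlier results of these data known.

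Intervals were exact binomial (Clopper-Pearson) for ratios, conditional exact for pairs, and Wilson and Newcombe for shares, at 95%. P-values followed the formula of the random sampling model of DEGseq, two-sided. edgeR's quasi-likelihood test could not be fitted, as 2 unreplicated libraries give no residual degrees of freedom. The tests were checked on simulated Poisson counts with no spread between animals and no PCR copies. That check covers counting error only and cannot show that the p-values hold for these libraries. Alternatives covered scaling, counting, read minimums and an assumed spread, and those of the passenger strands, of the most read tag, of tags of at least 21 bases and of the GC correction of pairs were chosen after seeing the data. Python 3.11.15, numpy 2.4.6, scipy 1.17.1, R 4.3.3, edgeR 4.0.16 and DESeq2 1.42.0 were used.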

Additional observations from a re-analysis of the deposited data

How the results depend on the processing

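No paired analysis was possible because each age had 1 library and the labels give no replicate numbers, and for the same reason no library could be left out. The count of members at least 2-fold different went from 1 to 0 under both TMM and DESeq2 factors, without let-7 starts and with the linear correction for GC content. The count of members lower in the old library went from 4 to 1 under both TMM and DESeq2 factors, to 2 without let-7 starts and to 7 with listed tags only. The count with an adjusted p under 0.05 went from 4 to 1, 0 and 0 in edgeR's exact test with an assumed coefficient of variation of 0.1, 0.2 and 0.4, which called 3105, 1484 and 49 of all starts. The pairs whose interval left out 0 went from 6 to 2 with listed tags only, and the miR-221 arm difference from 1.36 to 0.14, with a range of 1.13 to 1.46 under the other alternatives. The listed tags hold fewer reads, and the cause of these changes was not tested. In the arm difference, miR-221* moved from 0.26 to -0.96 with its listed tag, while miR-221 was at -1.09 and -1.10.

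Signs changed with TMM factors, DESeq2's size factors and without let-7 starts for miR-27b (0.46, 0.42 and 0.10) and miR-222 (0.44, 0.40 and 0.079). They changed for miR-27a with TMM factors (0.16) and DESeq2's size factors (0.13), but both intervals held 0, at -0.06 to 0.38 and -0.09 to 0.35. miR-24 went below 0 with known-miRNA reads, at -0.058 (-0.100 to -0.016), and with perfect matches only, at -0.14 (-0.22 to -0.07). Its interval lay above 0 with TMM factors (0.73), DESeq2's size factors (0.70) and the GC correction (0.41). The same held without let-7 starts (0.37) and with the most read tag only (0.097). With the GC correction the differences of miR-23a and miR-23b from miR-24 went to -0.44 and -0.38, and 8 pairs left out 0. With listed tags only, miR-221* went to -0.96 and the difference of miR-27a and miR-27b to 0.34. The assumed coefficients stand in for a spread between libraries of the same age, each a mix of animals, that these data do not give. Depth limited miR-23a, miR-23b, miR-27a and the rarer passenger strands, whose intervals were the widest.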
